A study of Mus musculus with 4 samples.

Results

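The cell cycle genes described here are a list of 37 genes, of which 36 were found among the 19059 genes measured. Of these 36, 15 are S phase genes (Mcm2 to Uhrf1) and 21 are G2/M genes (Mki67 onward). They were chosen by name and not by their values, though with earlier results of these data known. Ccnb1 was listed too and is not analysed here. The levels of these genes were described in 6 classes of cells (macrophages, monocytes, dendritic cells, T cells, NK cells and stromal cells) and in 4 libraries of CD45+ cells from MC38 tumors, a transplanted mouse colon carcinoma. The question of the comparison was how far cells of each class were dividing in the tumors of each treatment group.

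The hosts were C57BL/6 mice carrying human CTLA-4 (B-hCTLA-4), which received MC38 cells and then 3 treatments once the tumors had reached about 100 mm3. The isotype control group received hIgG1 at 10 mg/kg. The combination group received ipilimumab, an antibody against human CTLA-4, at 10 mg/kg and AT130-2, an antibody against mouse FcγRII in the mIgG1-N297A format that hardly engages Fc receptors, at 20 mg/kg. For each remaining library the title names one of these antibodies and the treatment field names the other. They are therefore called single antibody A (title anti-human CTLA-4) and single antibody B (title anti-mouse FcgRII), and the labels do not settle which of the 2 was given ipilimumab. Tumors of 11 mice were pooled into 1 library per group on day 8, and all 4 libraries carry the same batch label. The article describes fewer tumors per group, smaller tumors and lower doses of ipilimumab and AT130-2 than the sample records do. Its control antibody dose is the same. Its harvest day is numbered lower and is counted from the first treatment. With 1 library per group there is no replicate error, no test was made, and treatment and library cannot be told apart.

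A dividing cell copies its DNA in S phase and separates the copies in mitosis, after the gap called G2. The genes of S phase load and drive the replicative helicase, clamp the polymerase to DNA, supply nucleotides and restore chromatin behind the fork. Those of G2/M encode the mitotic cyclin-dependent kinase and its cyclins, the Aurora and Polo kinases, the spindle checkpoint, kinetochore and motor proteins, and the ubiquitin machinery that ends mitosis. Transcripts of the first group are made under E2F factors as a cell leaves G1, and those of the second under the MuvB complex with B-MYB and FOXM1. Both groups are low in resting cells. Neutrophils, which no longer divide once mature, were used as background.

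The 2 gene groups differ in their promoters, and 8 promoters are shown to let a reader see the elements that the groups share. RefSeq promoters of GRCm38.p6, from 250 bases before to 50 bases after the start, matched 29 of the 36 genes, and Mcm4, Gins2, Ccna2, Aurkb, Pbk, Tpx2 and Stmn1 had no entry. The CHR element TTTGAA was present on either strand in 12 of 16 G2/M promoters and in 2 of 13 S phase promoters, against 20.2% of the 27025 genes with an entry. The CCAAT box was present in 14 and 10 of them, against 41.1% of all genes. An E2F word (TTTCCCGC, TTTGGCGC, TTTCGCGC or TTTGCCGC) was present in 1 G2/M promoter and in 6 S phase promoters, against 2.6% of all genes. A match is a description of the letters, and a promoter without one may still be bound. Each line below gives the 160 bases before the start, 5′ to 3′ on the strand of the gene, with every CHR element, CCAAT box and E2F word in capitals, on either strand and merged where they overlap.
Mcm5: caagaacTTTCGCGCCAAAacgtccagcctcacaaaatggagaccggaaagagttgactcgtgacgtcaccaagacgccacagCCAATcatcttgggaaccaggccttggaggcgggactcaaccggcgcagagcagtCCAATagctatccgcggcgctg
Mcm6: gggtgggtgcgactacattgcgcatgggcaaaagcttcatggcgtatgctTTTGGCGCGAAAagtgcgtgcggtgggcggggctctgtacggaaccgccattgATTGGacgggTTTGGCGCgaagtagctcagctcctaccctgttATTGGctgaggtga
Rrm2: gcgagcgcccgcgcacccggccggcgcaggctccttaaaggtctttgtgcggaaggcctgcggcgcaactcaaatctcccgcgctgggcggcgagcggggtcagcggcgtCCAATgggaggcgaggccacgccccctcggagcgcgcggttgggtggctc
Mki67: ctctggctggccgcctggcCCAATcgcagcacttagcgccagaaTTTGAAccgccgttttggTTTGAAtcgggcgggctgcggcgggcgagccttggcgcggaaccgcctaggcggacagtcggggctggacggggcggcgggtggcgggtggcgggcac
Top2a: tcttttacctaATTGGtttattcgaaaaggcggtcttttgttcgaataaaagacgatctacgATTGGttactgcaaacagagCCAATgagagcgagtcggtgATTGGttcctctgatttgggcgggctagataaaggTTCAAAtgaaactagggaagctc
Ccnb2: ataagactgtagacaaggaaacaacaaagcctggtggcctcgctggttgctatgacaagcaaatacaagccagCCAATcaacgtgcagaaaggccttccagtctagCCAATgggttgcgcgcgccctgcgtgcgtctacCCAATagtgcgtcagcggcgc
Cdk1: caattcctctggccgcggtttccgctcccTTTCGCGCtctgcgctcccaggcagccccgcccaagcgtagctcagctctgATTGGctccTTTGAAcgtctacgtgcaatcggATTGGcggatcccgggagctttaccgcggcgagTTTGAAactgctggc
Cdc20: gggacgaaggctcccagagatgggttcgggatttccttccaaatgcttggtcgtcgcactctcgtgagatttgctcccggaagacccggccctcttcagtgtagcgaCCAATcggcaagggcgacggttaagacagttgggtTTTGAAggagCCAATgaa
In GRCm38.p6 these stretches lie at chr8:75109349-75109508 on the plus strand for Mcm5, chr1:128359706-128359865 on the minus strand for Mcm6, chr12:24708094-24708253 on the plus strand for Rrm2, chr7:135716380-135716539 on the minus strand for Mki67, chr11:99024190-99024349 on the minus strand for Top2a, chr9:70421555-70421714 on the minus strand for Ccnb2, chr10:69352913-69353072 on the minus strand for Cdk1 and chr4:118437344-118437503 on the minus strand for Cdc20. Mcm5 and Mcm6, subunits of the helicase, carry E2F words, and Mki67, Top2a, Cdk1 and Cdc20 carry a CHR element beside CCAAT boxes. The CHR elements of Ccnb2 lie outside the stretch shown, and Cdk1 was the G2/M promoter with an E2F word.

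The files hold unique molecular identifiers (UMIs), counted by probes against each gene, so the levels of different genes are not comparable and only the same gene is compared between libraries. The libraries held 129151823 to 196362818 UMIs and 7741, 6046, 5779 and 7219 cells after filters, in the order isotype control, single antibody A, single antibody B and combination, which is kept for every list of 4 values. The 26785 cells fell into 26 clusters made without the cell cycle genes, and macrophages were 4019, 3332, 3849 and 3710 of the cells, monocytes 1003, 660, 415 and 626, dendritic cells 248, 150, 99 and 133, T cells 419, 628, 243 and 485, NK cells 362, 426, 249 and 450 and stromal cells 73, 97, 100 and 78. The labels give sorted leukocytes and no cell types, so classes were named from markers: the 12 macrophage markers held 3.77%, 4.03%, 4.02% and 3.11% of the UMIs of macrophages, and NK cell markers 0.554%, 0.836%, 0.491% and 0.442% of those of NK cells. Stromal cells, fibroblasts or tumor cells, should not pass a CD45 sort, and their level of Ptprc, which encodes CD45, was 12.5, 22.6, 14.5 and 25 CPM, against 604, 557, 600.1 and 499.6 CPM in macrophages. Clusters with markers of T or NK cells together with macrophages, and a cluster led by Thbs1, Spp1 and Fn1, were kept out of these classes. No full barcode was shared between libraries, while 712 to 1148 droplet barcodes were shared by each pair of libraries. Levels are given as CPM, the UMIs of a gene or list per 1000000 UMIs of the class, and intervals are 95% intervals that cover counting error only.

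Stromal cells stood highest and monocytes lowest of the 6 classes on both lists. The summed level of the 15 S phase genes was 3045, 3140, 3609 and 3736 CPM in stromal cells, 1291, 1628, 1371 and 1219 CPM in NK cells, 1224, 1356, 1115 and 871 CPM in T cells and 1183, 1206, 1253 and 1005 CPM in macrophages. It was 841, 662, 645 and 732 CPM in dendritic cells and 365, 263, 320.2 and 381 CPM in monocytes. The summed level of the 21 G2/M genes was 3082, 3294, 4233 and 3626 CPM in stromal cells, 1759.9, 1538, 1759 and 1379 CPM in macrophages, 1194, 1251, 1052 and 1167 CPM in NK cells and 917, 872, 1065 and 489 CPM in T cells. It was 839.9, 432, 418 and 734 CPM in dendritic cells and 129, 155, 296 and 199 CPM in monocytes. Neutrophils gave 502, 152, 307 and 213 CPM for S phase and 319.9, 103, 123 and 101 CPM for G2/M genes. The monocyte levels were below this background in isotype control and above it in the other libraries, narrowly for S phase genes with single antibody B. Macrophage markers held 0.924%, 0.537%, 2.04% and 0.613% of the UMIs of neutrophils, and their part in this background was not tested. The neutrophil level was highest in isotype control, in 118, 97, 49 and 471 cells.

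**Figure D1:**
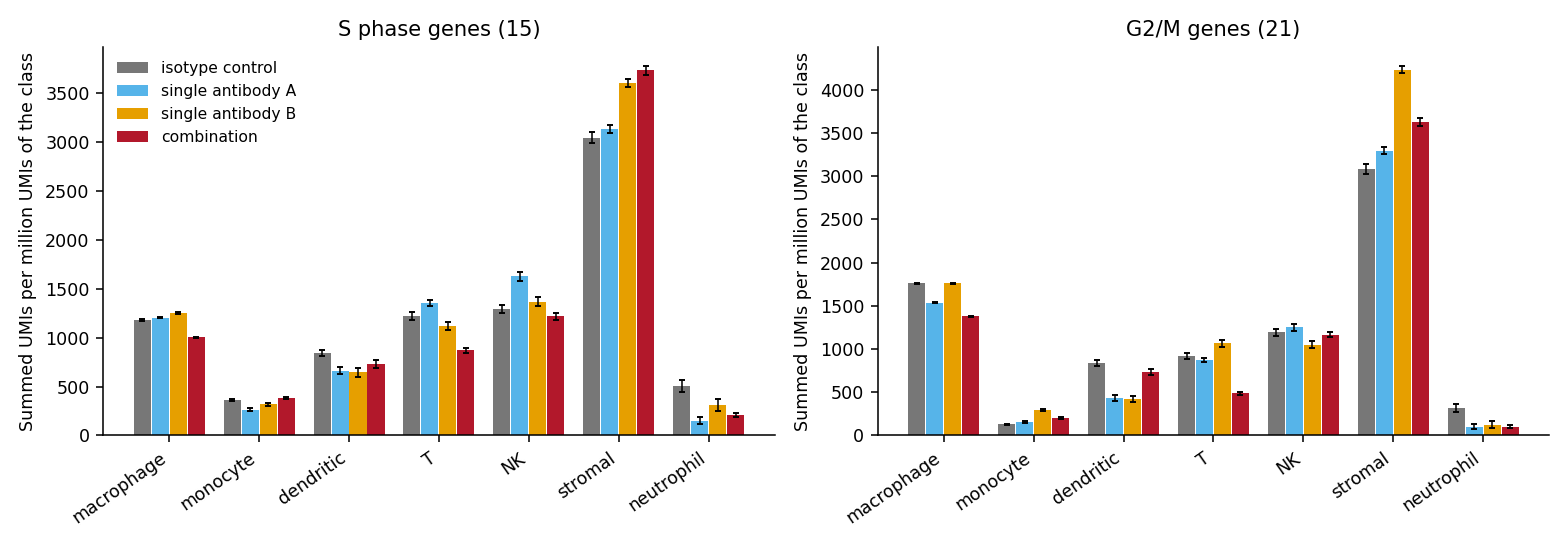
Bars give the summed level of the 15 S phase genes (left) and the 21 G2/M genes (right) in UMIs per 1000000 UMIs of the class, for 6 classes and neutrophils in each of the 4 libraries, with exact Poisson 95% intervals (counting error only). Stromal cells stand highest, and the combination library is the lowest of the 4 in macrophages and in T cells on both lists.

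In macrophages, 35 of the 36 genes lay below isotype control in the combination, where 70.3% of the 11695 genes tested did so. The level of all genes was shifted too, with a median ratio of 0.922, and the median ratio was 0.829 for the S phase genes and 0.791 for the G2/M genes. The combination over isotype control was 0.849 (0.842 to 0.857) for the S phase sum and 0.784 (0.778 to 0.789) for the G2/M sum. None of the 36 passed 1.5-fold in either direction, against 7.11% of all genes lower and 5.54% higher. In 32 of the 36 genes the combination was the lowest library of the 4, which holds for 51.5% of all genes. The single antibodies over isotype control gave 1.02 (1.01 to 1.03) and 1.06 (1.05 to 1.07) for the S phase sum and 0.874 (0.867 to 0.881) and 0.999 (0.992 to 1.01) for the G2/M sum. Scaled by the median of ratios over genes, which takes the shift of all genes out, the combination over isotype control was 0.921 and 0.849.

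Among the replication genes of macrophages, the helicase subunit Mcm5 stood at 79.8, 80.9, 81.8 and 61.9 CPM, and the other subunits Mcm2, Mcm3, Mcm4, Mcm6 and Mcm7 had ratios of 0.776, 0.803, 0.80, 0.79 and 0.832 to isotype control. All 6 were lowest in the combination. Pcna, the sliding clamp of the polymerases, stood at 246, 262, 268 and 231 CPM, a ratio of 0.94 (0.923 to 0.958). Rrm2, a subunit of ribonucleotide reductase, stood at 76.4, 82.7, 85.9 and 73.9 CPM and its partner Rrm1 at 130.2, 126, 138 and 108 CPM. The interval of Rrm2 in the combination over isotype control reached 1, with a ratio of 0.967 (0.935 to 1.0), whereas Rrm1 had 0.829 (0.807 to 0.851). Tyms, which makes the thymidine nucleotide, was the S phase gene with the lowest ratio, 0.751 (0.709 to 0.796). Cdc6, which loads the helicase, was the 1 gene of the 36 that was not lower, at 11.1, 12.7, 12.8 and 11.2 CPM and a ratio of 1.01 (0.924 to 1.1). Gins2 and Cdc45, which join the helicase at the fork, had ratios of 0.881 and 0.879, and Chaf1b and Uhrf1, which restore chromatin and its methylation, 0.818 and 0.885.

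Among the mitotic genes of macrophages, Mki67, whose protein coats mitotic chromosomes, stood at 256, 210.5, 256 and 175 CPM and had the lowest ratio of the 36, 0.683 (0.67 to 0.697). Pbk, a mitotic kinase, followed with 29.7, 25.9, 33.2 and 20.7 CPM and a ratio of 0.697 (0.657 to 0.739). Top2a, which untangles replicated DNA, stood at 212, 199, 208 and 179 CPM with a ratio of 0.844 (0.827 to 0.862). Cdk1, the kinase that starts mitosis, stood at 123, 109, 127 and 95.2 CPM with a ratio of 0.773 (0.751 to 0.794), and the cyclins Ccna2 and Ccnb2 had 0.762 and 0.725. For each of these 6 genes the combination was below both single antibodies, and single antibody A was below isotype control. Of the spindle checkpoint genes, Bub1 stood at 34, 32.3, 36.8 and 25 CPM with a ratio of 0.735 (0.696 to 0.775) and Bub1b at 45.1, 40.7, 44 and 43.2 CPM with 0.957 (0.915 to 1.00), the highest G2/M ratio. Aurka, the kinase of the spindle poles, had 0.924, its relative Aurkb 0.852, and Plk1 0.809. The motors Kif11 and Kif23 had 0.74 and 0.749, the kinetochore genes Cenpe and Cenpf 0.882 and 0.76, and the genes that end mitosis, Cdc20 and Ube2c, 0.791 and 0.793. Tpx2, Nusap1 and Birc5 had 0.799, 0.753 and 0.809. Stmn1, a microtubule regulator, stood at 225, 208, 237 and 185 CPM with a ratio of 0.823 (0.806 to 0.84).

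Most of these UMIs lay in few cells. A macrophage cluster led by histone genes held 8.22% of macrophages and 47.3% of their UMIs of the 36 genes, and a cluster led by Cdc20 and Aspm held 2.81% and 10.7%. The former, led by histone genes, was high on both lists, with 3154 CPM of S phase and 7122 CPM of G2/M genes, and the latter on the G2/M list with 843 and 7676 CPM. The cell cycle genes were left out of the clustering, but correlated genes such as histones were not. Both clusters together held 10.7% (9.81% to 11.7%), 10.5% (9.45% to 11.6%), 11.8% (10.8% to 12.9%) and 11% (10.0% to 12%) of macrophages, which overlap in all 4 libraries. The lower sum of the combination was not matched by a smaller share of these clusters. These clusters are not a count of all cells with G2/M genes. The share of macrophages with at least 3 G2/M genes, described below, had a ratio to isotype control of 0.835 (0.769 to 0.906). Without drawing down it was 1.02. Within the histone-led cluster the G2/M sum was 7284, 7017, 8074 and 6169.8 CPM and the S phase sum 2985, 3257, 3405 and 2994 CPM. In the Cdc20-led cluster the G2/M sum was 7843, 7019, 8551 and 7303 CPM and the S phase sum 1078, 816, 711 and 768 CPM. In the macrophages outside both clusters the S phase sum was 904, 931, 937 and 719.9 CPM and the G2/M sum 627, 544, 504 and 418 CPM, lowest in the combination on both.

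Of the other macrophage clusters, most but not all had their lowest sums in the combination. In the cluster led by Ly6i and Dcstamp the S phase sum was 634, 605, 684 and 347 CPM and the G2/M sum 334, 229, 282 and 173 CPM, and in that led by Adm and heat shock genes 998, 936, 802 and 528 and 1045, 1066, 815 and 559.8 CPM. In both the combination was the lowest library on both lists. In the cluster led by Cbr2 and Folr2 the S phase sum was 1101, 1206, 1064 and 1073 CPM and the G2/M sum 605, 494, 419 and 478 CPM, and in that led by Gbp2b and MHC class II genes 839.9, 928, 995 and 762 and 392, 372, 385 and 329.9 CPM. The combination was the lowest library on both lists in the Gbp2b-led cluster, and single antibody B in the Cbr2-led cluster. In the cluster led by Cmpk2 and the interferon-induced Ifit genes the sums were 716, 775, 1021 and 637 and 833, 724, 884 and 855 CPM, lowest in the combination for S phase and with single antibody A for G2/M genes. The clusters led by Retnla and Clmp held 35, 58, 25 and 28 and 19, 16, 21 and 30 cells. The former gave 613, 459, 459 and 375 CPM of S phase and 889.9, 483, 1247 and 692 CPM of G2/M genes, and the latter 518, 332, 753 and 279 and 1165, 115, 226 and 85 CPM. The combination was the lowest library in both, except for the G2/M genes of the Retnla-led cluster, where single antibody A was. The cluster led by Thbs1, Spp1 and Fn1, which was left unnamed, had 782, 639.9, 712 and 445 CPM of S phase and 233, 330.4, 267 and 129 CPM of G2/M genes, with the combination lowest on both.

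**Figure D2:**
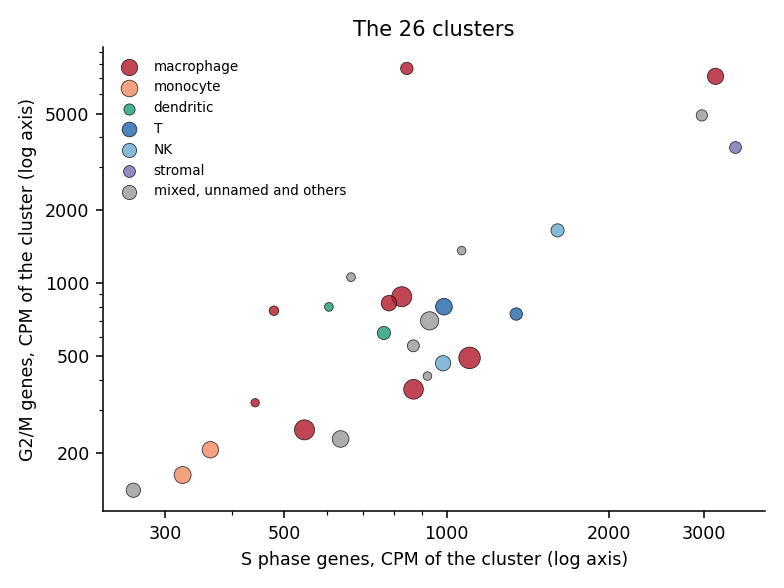
Each point is 1 of the 26 clusters, placed by the summed level of the S phase genes (horizontal, log axis) and of the G2/M genes (vertical, log axis) over all 4 libraries, in UMIs per 1000000 UMIs of the cluster, with an area that grows with its cells. The histone-led macrophage cluster (3154 and 7122 CPM) and the Cdc20-led cluster (843 and 7676 CPM) stand highest on the G2/M list and the stromal cluster on the S phase list, while the neutrophil cluster stands lowest.

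In T cells as a class, the sums of the cell cycle genes were lower in the combination than in any other library. The extent depended on which cells were counted as T cells and on the subset, described below. Of the 35 genes with at least 100 UMIs, 33 were below isotype control, against 61.1% of 9567 genes tested, and 22 were at least 1.5-fold lower (5 S phase and 17 G2/M genes), against 6.16% of all genes. None was 1.5-fold higher, against 5.11%. The median ratio was 0.711 for S phase and 0.516 for G2/M genes, beside 0.95 for all genes. The combination over isotype control was 0.711 (0.681 to 0.743) for the S phase sum and 0.533 (0.505 to 0.563) for the G2/M sum, and the ratios to single antibody A were 0.642 (0.618 to 0.668) and 0.561 (0.533 to 0.59). Those to single antibody B were 0.781 (0.745 to 0.818) and 0.46 (0.435 to 0.485). The combination was the lowest of the 4 libraries for 32 of the 35 genes, against 34.4% of all genes. These comparisons share the combination library. With the cell cycle genes kept for clustering, the G2/M ratio to isotype control was 0.859 and 3 of 23 genes were at least 1.5-fold lower, and with the clusters of T cell and macrophage markers added it was 0.833 with 1 of 36. Without cells that held 1% or more of their UMIs on markers of another class, it was 0.363 with 26 of 32. The share of all genes past the fold in these settings is not given here, so these counts are not set against it. With the cell cycle genes kept, the class held 353 and 342 cells of isotype control and the combination, against 419 and 485.

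Rrm2 had the lowest S phase ratio in T cells, with 63.3, 58.3, 44.1 and 22.4 CPM and 0.354 (0.279 to 0.448) for the combination over isotype control. The combination was below the other 3 libraries, which ranged from 44.1 to 63.3 CPM. Mcm5 stood at 69, 88.8, 75.7 and 49.4 CPM, a ratio of 0.716 (0.594 to 0.863), and the other helicase subunits had ratios of 0.71, 0.647, 0.732, 0.718 and 0.719. Pcna stood at 253, 267, 259 and 214 CPM, a ratio of 0.849 (0.773 to 0.932). Gins2, Cdc45 and Chaf1b had ratios of 0.434, 0.488 and 0.436, while Tyms stood at 19.3, 26.5, 19.1 and 19.4 CPM, a ratio of 1.0 (0.719 to 1.41), the second highest of the 35. The ratios of the helicase subunits and the clamp were closer to that of all genes than those of Rrm2, Gins2, Cdc45 and Chaf1b.

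Of the mitotic genes of T cells, Nusap1, which bundles spindle microtubules, had the lowest ratio of all, with 27, 22.8, 18.3 and 8.17 CPM and 0.302 (0.204 to 0.443). Mki67 stood at 172, 158, 194 and 78.1 CPM, a ratio of 0.454 (0.398 to 0.518), and Top2a at 114, 104, 106 and 62.7 CPM, a ratio of 0.551 (0.473 to 0.643). Cdk1 stood at 43, 32.5, 43.7 and 26.6 CPM, a ratio of 0.618 (0.483 to 0.792), with Ccna2 at 0.532 and Ccnb2 at 0.604 times isotype control. In each of these genes the combination was the lowest library. Plk1, Aurka and Aurkb had ratios of 0.446, 0.465 and 0.46, Kif11 and Kif23 of 0.499 and 0.60, and Cenpf and Cenpe of 0.411 and 0.777. Birc5, Ube2c, Tpx2 and Cdc20 had ratios of 0.49, 0.488, 0.589 and 0.777. The checkpoint genes parted, Bub1 with 10.0, 12.1, 15.6 and 3.99 CPM and 0.399 (0.217 to 0.72), and Bub1b with 15, 17.7, 18 and 17.1 CPM and 1.14 (0.788 to 1.67), the highest ratio of the 35. Stmn1, which resting lymphocytes carry too, stood at 132, 148, 142 and 73.1 CPM, a ratio of 0.554 (0.48 to 0.639). Pbk, with under 100 UMIs in the class, is given by its counts of 20, 30, 13 and 13 UMIs.

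The T cells of the combination also differed in composition. CD8 T cells (a UMI of Cd8a or Cd8b1 and none of Cd4 or Foxp3) numbered 110, 287, 89 and 249, conventional CD4 T cells 118, 187, 44 and 107, and Foxp3-positive CD4 T cells, taken as regulatory T cells, 87, 50, 45 and 11. These counts do not cover a Foxp3-led cluster of 734, 244, 338 and 623 cells, kept out of the class for its macrophage markers. They therefore do not give the number of regulatory T cells in the tumors. Kept out in the same way was a cluster of 92, 70, 28 and 92 cells with Cd8a and Cd8b1 among its leading genes. Its G2/M sum was 4661, 6647, 5575 and 4317 CPM, and the sums of CD8 T cells given here leave these cells out. In CD8 T cells the S phase sum was 1534, 1485, 1039 and 972 CPM and the G2/M sum 768, 1014, 738 and 579 CPM, with ratios to isotype control of 0.634 (0.595 to 0.676) and 0.754 (0.69 to 0.824). In conventional CD4 T cells the sums were 709.8, 979, 644 and 597 and 602, 625, 774 and 305 CPM, with ratios of 0.841 (0.733 to 0.965) and 0.507 (0.427 to 0.602). Foxp3-positive cells carried the highest G2/M sum of these T cell subsets in every library, at 2007, 1257, 2219 and 602 CPM, beside 1473, 1266, 1334 and 839.9 CPM for S phase genes. In the combination this sum was within counting error of that of CD8 T cells. The ratios were 0.57 (0.478 to 0.676) and 0.30 (0.245 to 0.364), and rest on 11 cells in the combination. The remaining T cells had ratios of 0.733 (0.672 to 0.80) and 0.602 (0.532 to 0.681). The G2/M sum of the combination was thus below isotype control in each of these subsets. Its S phase sum was within counting error of single antibody B in CD8 and in conventional CD4 T cells. These ratios were 0.936 (0.873 to 1.003) and 0.926 (0.782 to 1.1), whereas the G2/M ratios to single antibody B were 0.785 (0.721 to 0.855) and 0.394 (0.327 to 0.475). In CD8 T cells, Mki67 stood at 119, 174, 113 and 91.5 CPM and Rrm2 at 60.9, 56, 20.7 and 26.6 CPM.

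The 2 T cell clusters held different shares of the libraries. The cluster led by Cd4 and Ccr4 held 360, 452, 201 and 344 cells, with an S phase sum of 971, 1166, 1158 and 746 CPM and a G2/M sum of 908, 852, 1062 and 513 CPM. The cluster led by Ccl1, Ifng and Cd8a held 59, 176, 42 and 141 cells, with 1916, 1614, 994 and 1034 and 941, 899.8, 1073 and 458 CPM. In both clusters the combination had the lowest G2/M sum. The 12 macrophage markers held 0.903%, 0.396%, 1.54% and 0.881% of the UMIs of T cells, with 12, 12, 12 and 12 of them present, and T cell markers held 0.862%, 1.21%, 0.757% and 0.778%. The macrophage share was thus alike in isotype control and the combination and lowest with single antibody A, and its part in the sums was not tested. Median depth was 4141, 4898, 5093 and 6202 UMIs per T cell. A pair of clusters with markers of T cells and macrophages together held 826, 314, 366 and 715 cells, with an S phase sum of 1156, 1787, 1352 and 1079.5 CPM and a G2/M sum of 1303, 1973, 1225 and 1145 CPM. Within them, a cluster led by Serpine2 had Cd8a, Cd8b1 and histone genes among its leading genes. It reached a G2/M sum of 4661, 6647, 5575 and 4317 CPM in 92, 70, 28 and 92 cells. The Foxp3-led cluster reached 789.5, 684, 804 and 569 CPM in 734, 244, 338 and 623 cells.

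In NK cells as a class, the genes were close to isotype control in the combination. Within each of their 2 clusters, described below, the sums of the combination lay below isotype control on both lists. The S phase genes of the class stood highest with single antibody A, which held for 1 of the 2 clusters. Of the 36 genes, 22 were below isotype control, against 53% of 9297 genes, and 1 was at least 1.5-fold higher and 0 lower, against 3.61% and 6.24% of all genes. The median ratio was 0.933 for S phase and 0.963 for G2/M genes, beside 0.987 for all genes. The combination over isotype control was 0.944 (0.905 to 0.984) for the S phase sum and 0.977 (0.936 to 1.02) for the G2/M sum, the latter within counting error of 1. Single antibody A over isotype control was 1.26 (1.21 to 1.32) and 1.05 (0.999 to 1.1), and single antibody A was the highest library for 13 of 15 S phase and 9 of 21 G2/M genes, against 35.6% of all genes. The side of the combination was not stable: the S phase ratio was 1.03 with no cells left out as doublets, and the G2/M ratio ran from 0.802 without integration to 1.81 with classes taken from the marker UMIs of each cell. Without integration the class held 97 and 209 cells of isotype control and the combination, against 362 and 450.

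Plk1, the Polo kinase, was the NK cell gene with the highest ratio, 24.5, 31.9, 23.6 and 36.7 CPM and 1.5 (1.13 to 2.01), followed by Ube2c, the ubiquitin-conjugating enzyme of late mitosis, with 46.9, 72.1, 40.7 and 63.4 CPM and 1.35 (1.1 to 1.67). Bub1 had the lowest, 15.3, 13.5, 20.4 and 11 CPM and 0.718 (0.469 to 1.1), followed by Tyms with 47.2, 47.7, 44.8 and 37.4 CPM and 0.793 (0.629 to 1.00). Mcm5 stood at 70.6, 107, 81 and 80.0 CPM, Pcna at 275, 313, 287 and 252 CPM and Rrm2 at 96.1, 99.2, 113 and 88.7 CPM. Mki67 stood at 190.2, 168, 149 and 164 CPM with a ratio of 0.86 (0.769 to 0.962), Top2a at 154, 175, 139.7 and 169 CPM with 1.1 (0.979 to 1.24), and Cdk1 at 48.2, 57.1, 64.3 and 64.5 CPM with 1.34 (1.09 to 1.65). Markers of the same phase thus lay on both sides of isotype control among the cells counted here. Stmn1 stood at 225, 219, 183 and 181 CPM with a ratio of 0.808 (0.728 to 0.897). Mki67, Stmn1 and Tyms did not keep their side. With classes taken from the marker UMIs of each cell, their ratios were 1.69, 1.16 and 1.15. Without cells that held 1% or more of their UMIs on markers of another class, the ratio of Mki67 was 1.55 (1.34 to 1.81). Uhrf1 stood at 41.1, 86.4, 65.1 and 54.7 CPM and was lowest in isotype control.

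The NK cells fell into 2 clusters of different levels. NK cells of the Gzma-led cluster, which has Ncr1 and Eomes among its leading genes, numbered 257, 304, 155 and 244 with an S phase sum of 1087, 898, 969 and 961 CPM and a G2/M sum of 629, 249.6, 551 and 416 CPM. Those of the cluster led by the granzymes Gzmg, Gzmd and Gzmc numbered 105, 122, 94 and 206 with 1496, 2207, 1686 and 1333 and 1759, 2045, 1446 and 1501 CPM. Single antibody A was thus the highest library on both lists in the Gzmg-led cluster and the lowest on both in the Gzma-led cluster, where its S phase sum was within counting error of the combination. The Gzmg-led cluster held 206 of the 450 NK cells of the combination and 105 of the 362 of isotype control. Its name rests on fewer markers. In it 5 of the 9 NK cell markers were detected, and 0 were among its leading genes. In the Gzma-led cluster these numbers were 9 and 8. The Gzmg-led cluster nevertheless held 76.5% of the UMIs of the cell cycle genes in NK cells. The article also describes innate lymphoid cells (ILC1), increased in the combination. Whether the Gzmg-led cluster holds such cells was not tested. Within each cluster the combination lay below isotype control, with G2/M ratios of 0.662 (0.595 to 0.735) and 0.853 (0.813 to 0.896) and S phase ratios of 0.884 (0.821 to 0.951) and 0.892 (0.846 to 0.939). In the class as a whole the G2/M ratio was 0.977 (0.936 to 1.02). The 12 macrophage markers held 0.779%, 0.279%, 1.06% and 0.381% of the UMIs of NK cells, with 12, 12, 12 and 12 of them present, and their part in these values was not tested. A cluster with NK cell and macrophage markers together, kept apart, held 167, 40, 51 and 101 cells, with 972, 882, 834 and 706 CPM of S phase and 657, 524, 267 and 523 CPM of G2/M genes.

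In monocytes, levels were low and the G2/M sum of the class stood higher in all 3 treated libraries than in isotype control. This did not hold for every library within each monocyte cluster, as described below. Of the 28 genes with at least 100 UMIs, 23 were above isotype control in the combination, against 40.9% of 9403 genes, and 12 were at least 1.5-fold higher (2 S phase and 10 G2/M genes), against 6.54% of all genes. None was 1.5-fold lower, against 4.88%. The median ratio was 1.22 for S phase and 1.56 for G2/M genes, beside 0.958 for all genes. The combination over isotype control was 1.04 (0.995 to 1.09) for the S phase sum and 1.54 (1.43 to 1.66) for the G2/M sum, and single antibody B over isotype control 0.876 (0.824 to 0.931) and 2.29 (2.12 to 2.48). Single antibody A over isotype control was 0.721 (0.68 to 0.764) and 1.21 (1.11 to 1.31). Single antibody B was the highest library for 11 of the 16 G2/M genes, against 25.3% of all genes, and single antibody A the lowest for 11 of the 12 S phase genes, against 25.2%. The direction turned with the cells counted: with no cells left out as doublets the G2/M ratio was 0.589 and 16 of 36 genes were at least 1.5-fold lower, and without cells that held 1% or more of their UMIs on markers of another class the ratio was 0.967. The share of all genes past the fold with no cells left out as doublets is not given here.

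Cdc20, the activator of the ubiquitin ligase that ends metaphase, had the highest ratio in monocytes, 3.11 (1.77 to 5.7), from 18, 14, 45 and 47 UMIs. Tpx2, a spindle assembly factor, followed with 2.58 (1.72 to 3.95) from 36, 48, 66 and 78 UMIs. Kif23 and Pcna had the lowest, 0.815 (0.632 to 1.05) at 15.7, 16.9, 21.4 and 12.8 CPM and 0.827 (0.765 to 0.893) at 159.9, 137, 153 and 132 CPM. Mki67 stood at 18.8, 16.8, 41.7 and 28.8 CPM, Top2a at 8.85, 10.8, 23.1 and 17.3 CPM and Cdk1 at 6.46, 10.7, 20.3 and 10.1 CPM, each lower in isotype control than in the combination. These directions depended on the cells counted. With no cells left out as doublets, the ratios of Cdc20, Tpx2, Mki67, Top2a and Cdk1 were 0.739, 0.494, 0.549, 0.487 and 0.516. Mcm5 stood at 18.7, 8.78, 12.4 and 20.6 CPM, Rrm2 at 5.67, 3.92, 3.93 and 9.96 CPM and Stmn1 at 19.7, 13.8, 24 and 30.7 CPM. Cdc6, Cdc45, Chaf1b, Bub1, Pbk, Kif11, Cenpe and Cenpf had under 100 UMIs over the 4 libraries. The cluster led by Dmkn and Cd177 held 453, 350, 235 and 408 monocytes with a G2/M sum of 124, 221, 232 and 124 CPM, and the cluster led by Ace held 550, 310, 180 and 218 with 134, 68.8, 392 and 354 CPM. The excess of the combination over isotype control lay in the Ace-led cluster. Single antibody A lay below isotype control in the Ace-led cluster and above it in the Dmkn-led cluster. Monocyte markers held 1.17%, 1.18%, 1.12% and 0.934% of the UMIs of monocytes. Macrophage markers held 1.01%, 0.799%, 1.09% and 1.04%, with 12, 12, 12 and 12 of 12 present, more than the monocyte markers in the combination only. The part of either list in these values was not tested.

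In dendritic cells both single antibodies stood below isotype control and the combination lay between. The ratios to isotype control were 0.787 (0.734 to 0.843) and 0.767 (0.708 to 0.831) for the S phase sums of A and B, and 0.515 (0.475 to 0.557) and 0.497 (0.452 to 0.547) for their G2/M sums. The combination gave 0.869 (0.813 to 0.929) and 0.873 (0.817 to 0.933). Of the 27 genes with at least 100 UMIs, 19 were below isotype control in the combination, against 61.9% of 8366 genes, 5 were at least 1.5-fold lower (all G2/M genes), against 9.38%, and 1 higher, against 5.16%. The median ratio was 0.873 for S phase and 0.833 for G2/M genes, beside 0.936 for all genes. Isotype control was the highest library for 19 of the 27 genes, against 29.1% of all genes. The G2/M ratio of the combination was 1.21 with the cell cycle genes kept for clustering and 3.01 with classes taken from the marker UMIs of each cell, where the S phase ratio was 1.9, so its side was not stable. Classes taken from marker UMIs held 117 and 68 dendritic cells of isotype control and the combination, against 248 and 133.

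Among the genes of dendritic cells, ratios to isotype control lay on both sides of 1. Rrm2 had the highest ratio, 34.5, 24.8, 9.46 and 61.3 CPM and 1.77 (1.35 to 2.34), then Birc5, a subunit of the chromosomal passenger complex, with 28.3, 16.9, 11 and 39.3 CPM and 1.39 (1.0 to 1.93). Ccnb2, a mitotic cyclin, had the lowest, 35.2, 21.6, 25.2 and 17.3 CPM and 0.491 (0.321 to 0.733), then Ube2c with 50.9, 21.6, 24.4 and 26.2 CPM and 0.514 (0.365 to 0.714). Mki67 stood at 127, 61.2, 65.4 and 111 CPM, Top2a at 103, 44.3, 44.1 and 109 CPM and Cdk1 at 45.7, 12.7, 23.6 and 49.8 CPM, with both single antibodies below isotype control and the combination. Mcm5 stood at 60.4, 42.8, 44.1 and 43 CPM, Pcna at 201, 159.9, 162 and 178 CPM and Stmn1 at 100.2, 55.9, 65.4 and 102 CPM. Cdc6, Cdc45, Chaf1b, Cdc20, Bub1, Aurkb, Pbk, Cenpe and Cenpf had under 100 UMIs. The cluster led by Siglech and Cd209a held 209, 134, 86 and 98 cells and a G2/M sum of 674, 471, 459 and 840.2 CPM, and the cluster led by Ccl22 and Ccr7 held 39, 16, 13 and 35 cells and 1829, 52, 157 and 363 CPM. In the Siglech-led cluster the combination stood above isotype control and in the Ccl22-led cluster below it. Dendritic cell markers held 0.379%, 0.431%, 0.348% and 0.625% of the UMIs of the class, highest in the combination. Macrophage markers held 0.627%, 0.514%, 0.756% and 0.574%, more than the dendritic cell markers in every library but the combination. The part of either list in these values was not tested.

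In stromal cells, 33 of the 36 genes were above isotype control in the combination, against 47.2% of 10453 genes. The combination over isotype control was 1.23 (1.2 to 1.25) for the S phase sum and 1.18 (1.15 to 1.2) for the G2/M sum, and single antibody B over isotype control 1.19 (1.16 to 1.21) and 1.37 (1.35 to 1.4). The median ratio of the combination was 1.23 for S phase and 1.15 for G2/M genes, beside 0.986 for all genes. At 1.5-fold, 1 gene was higher and 0 lower, against 4.87% and 7.65% of all genes. Single antibody B was the highest library for 20 of 21 G2/M genes, against 24.3% of all genes for single antibody B. Isotype control was the lowest library for 21 of the 36, against 27.6%.

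Cdc45, part of the active helicase, was the stromal gene with the highest ratio, 75.9, 80.2, 91.3 and 117 CPM and 1.54 (1.34 to 1.77), followed by Gins2 with 66.7, 76.3, 83.7 and 98.7 CPM and 1.48 (1.28 to 1.72). Cdc20 and Bub1b had the lowest, 0.886 (0.785 to 1.0) at 113, 94.6, 109.9 and 100.1 CPM and 0.904 (0.786 to 1.04) at 85.5, 67.3, 90.6 and 77.3 CPM. Mcm5 stood at 164, 172, 199 and 219.7 CPM, Pcna at 468, 500.4, 610.0 and 557 CPM and Rrm2 at 441, 429, 502 and 535 CPM. Top2a stood at 467, 524, 702 and 621 CPM and Cdk1 at 363, 430.2, 528 and 440.4 CPM, both highest with single antibody B. Mki67 stood at 209, 207, 306 and 209 CPM, where the combination equalled isotype control within counting error (ratio 1.00, 0.916 to 1.09). Stmn1 stood at 220.1, 209, 280.0 and 277 CPM. The class holds 73, 97, 100 and 78 cells with median depths of 50342, 78098, 82510.5 and 86232 UMIs, and stromal markers held 0.909%, 0.983%, 0.892% and 0.67% of its UMIs. Fibroblasts and tumor cells within the class were not told apart.

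**Figure D3:**
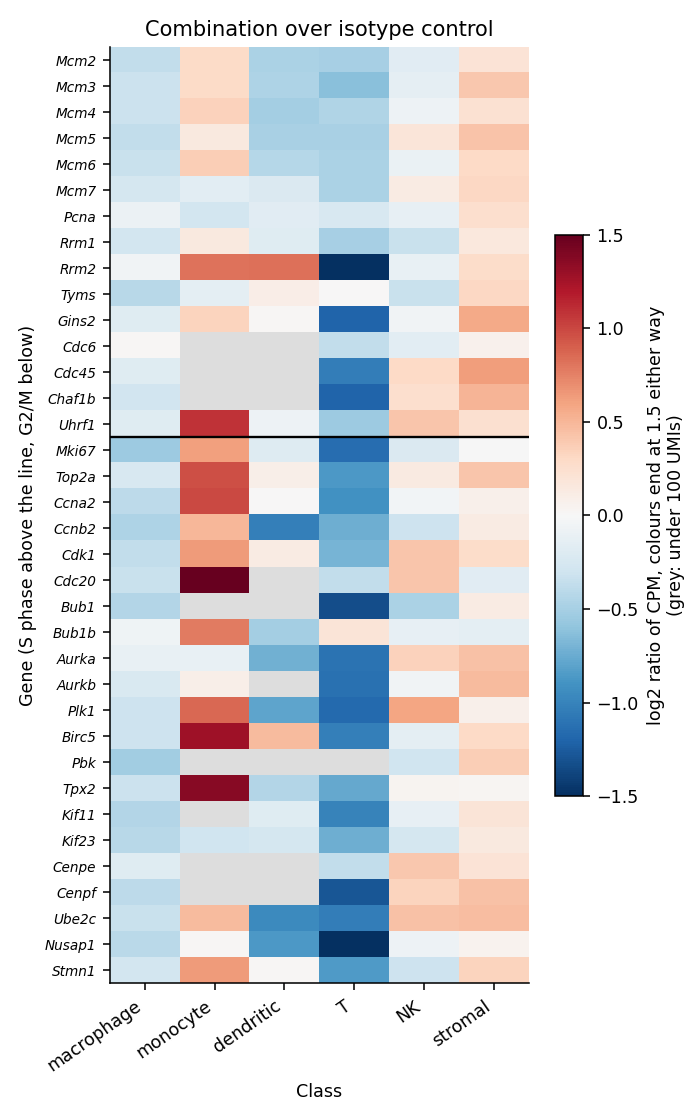
Colours give the log2 ratio of the level in the combination to that in isotype control for each of the 36 genes (rows, S phase above the line and G2/M below) in each of 6 classes (columns), from blue (lower) to red (higher), with genes under 100 UMIs in grey. The T cell column is blue for 33 of 35 genes and the macrophage column for 35 of 36, the stromal column is red for 33 of 36, and the dendritic and NK columns hold both colours.

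Counting cells in place of UMIs gave wider intervals. A cell was counted where it held UMIs of at least 3 of the 20 G2/M genes other than Stmn1, after its UMIs had been drawn down at random to the 10th percentile of its class. This depth was 7978 UMIs in macrophages, 2235 in T cells, 2153 in NK cells, 4880 in monocytes, 5547 in dendritic cells and 10900 in stromal cells, so shares are not comparable between classes, and shallower cells were left out (551, 326, 316 and 298 macrophages, 47, 59, 24 and 48 T cells and 47, 43, 24 and 35 NK cells). Values are means of 100 draws. The share was 27.3% (25.8% to 28.8%), 25.6% (24.1% to 27.2%), 25.8% (24.4% to 27.3%) and 22.8% (21.4% to 24.2%) of macrophages, and the combination over isotype control was 0.835 (0.769 to 0.906). In T cells it was 6.39% (4.18% to 9.45%), 6.39% (4.47% to 8.65%), 8.11% (4.94% to 12.7%) and 4.51% (2.82% to 6.98%), with a ratio of 0.709 (0.398 to 1.26), and in NK cells 6.14% (3.67% to 9.26%), 4.36% (2.61% to 7.01%), 7.86% (4.81% to 12.3%) and 5.38% (3.35% to 7.92%), with a ratio of 0.879 (0.484 to 1.6). For both lymphocyte classes the intervals overlap in all 4 libraries. In dendritic cells the share was 10.2%, 6.3%, 6.96% and 12.2% with a ratio of 1.19 (0.634 to 2.24), in monocytes 1.85%, 1.02%, 2.37% and 2.02% with 1.15 (0.548 to 2.41), and in stromal cells 65.5%, 74.2%, 81.9% and 84.2% with 1.29 (1.04 to 1.58). Of neutrophils at 1905 UMIs, 1.07%, 0.0543%, 0% and 0.357% were counted, where 0 of 45 cells with single antibody B allows a share of up to 6.67%. Median depth was 3028, 3171, 3499 and 3214 UMIs in neutrophils and 8496, 8872, 10016 and 9848 in monocytes. Without drawing down, the shares were 38.8%, 41.3%, 40.8% and 39.4% in macrophages and 13.4%, 13.4%, 18.1% and 16.5% in T cells. Isotype control was then the lowest library in macrophages, and in T cells isotype control and single antibody A were level at 13.4%, below the others. Drawn down, the combination was lowest in both classes.

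**Figure D4:**
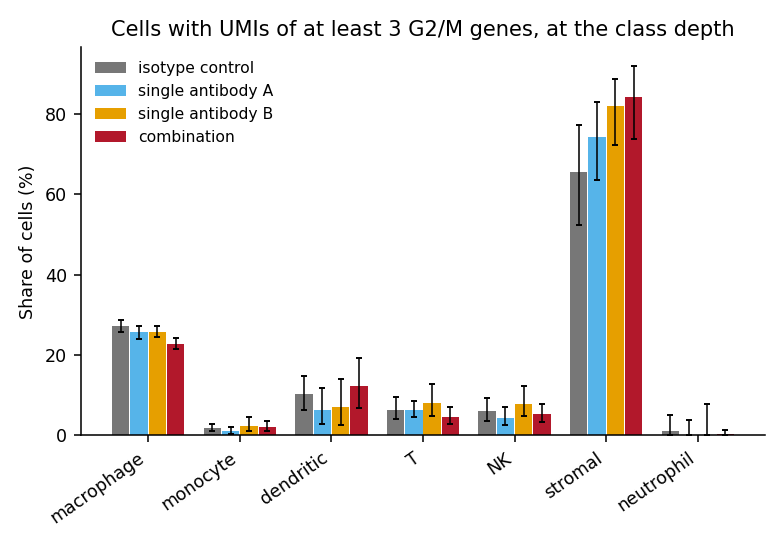
Bars give the percentage of cells with UMIs of at least 3 of 20 G2/M genes in each class and library, after drawing cells down to 1 depth per class, with exact binomial 95% intervals (counting error only). In macrophages the combination lies at 22.8% against 27.3% in isotype control, and in T and NK cells the intervals of all 4 libraries overlap.

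Of 110 other cell cycle genes listed beside these (G1 cyclins and kinases, inhibitors, E2F and MYB factors, replication, checkpoint and mitosis), 109 were found. Below isotype control in the combination were 97 of 108 genes with at least 100 UMIs in macrophages, 91 of 100 in T cells and 45 of 103 in NK cells, against 70.3%, 61.1% and 53% of all genes tested. In T cells all 34 mitosis genes tested and all 28 replication genes tested were below 1, with median ratios of 0.61 and 0.789, beside 0.95 for all genes. The lowest ratios in T cells were those of Kif20b, a mitotic motor, at 22, 18.4, 18 and 6.65 CPM (ratio 0.302, 0.195 to 0.462) and Clspn, a replication checkpoint adaptor, at 16, 18.8, 8.98 and 5.51 CPM (ratio 0.344, 0.209 to 0.557). In macrophages they were those of Myc, a growth transcription factor, at 148, 107, 141 and 97 CPM (ratio 0.655, 0.638 to 0.673) and the motor Kif18a at 15.9, 13.3, 15.4 and 10.8 CPM (ratio 0.676, 0.623 to 0.733). In NK cells they were those of E2f7 at 11.5, 11.3, 11 and 6.72 CPM (ratio 0.582, 0.344 to 0.98) and Foxm1, an activator of G2/M genes, at 22.8, 18, 17.5 and 14.6 CPM (ratio 0.64, 0.448 to 0.914), and the highest those of Wee1, which restrains Cdk1, with 1.73 (1.22 to 2.47) and Kif18a with 1.62 (1.07 to 2.51). Beside Cdkn1a, the highest ratios were those of Myb in macrophages (ratio 1.39, 1.1 to 1.75, at 1.47, 0.777, 0.687 and 2.04 CPM) and of Cdk4 in T cells (ratio 1.15, 0.903 to 1.47).

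Cdkn1a, which encodes the cyclin-dependent kinase inhibitor p21, was higher in the combination in macrophages, T cells, dendritic cells and monocytes. The cell cycle genes were lower in macrophages and T cells, and their sums did not keep their side in dendritic cells and monocytes. A link between Cdkn1a and these genes was not tested. It stood at 217, 244, 202 and 320.2 CPM in macrophages, a ratio of 1.47 (1.45 to 1.5), and at 101, 82, 114 and 236 CPM in T cells, a ratio of 2.34 (2.06 to 2.66). In dendritic cells it stood at 184, 249.7, 234 and 721 CPM (ratio 3.91, 3.53 to 4.33) and in monocytes at 294, 436, 327 and 543 CPM (ratio 1.85, 1.76 to 1.94). In these 4 classes the combination was the highest library. In NK cells it stood at 106, 50.7, 77 and 87.6 CPM (ratio 0.824, 0.708 to 0.959), highest in isotype control, and in stromal cells at 58.9, 74.4, 60.4 and 62.8 CPM (ratio 1.07, 0.904 to 1.26), highest with single antibody A. Of the other inhibitors, Cdkn1b, which encodes p27, stood at 299.7, 321, 249 and 270.3 CPM in T cells (ratio 0.902, 0.829 to 0.982), 178, 231, 175 and 230.3 CPM in NK cells (ratio 1.29, 1.16 to 1.44) and 119, 115, 105 and 109.8 CPM in macrophages (ratio 0.925, 0.90 to 0.95). Cdkn2c had ratios of 0.814, 0.684 and 1.26 and Cdkn2d of 0.745, 1.08 and 1.2 in macrophages, T cells and NK cells. Cdkn1c, Cdkn2a and Cdkn2b stood at 0.979 to 2.42 CPM in macrophages and had under 100 UMIs in T cells and NK cells.

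**Figure D5:**
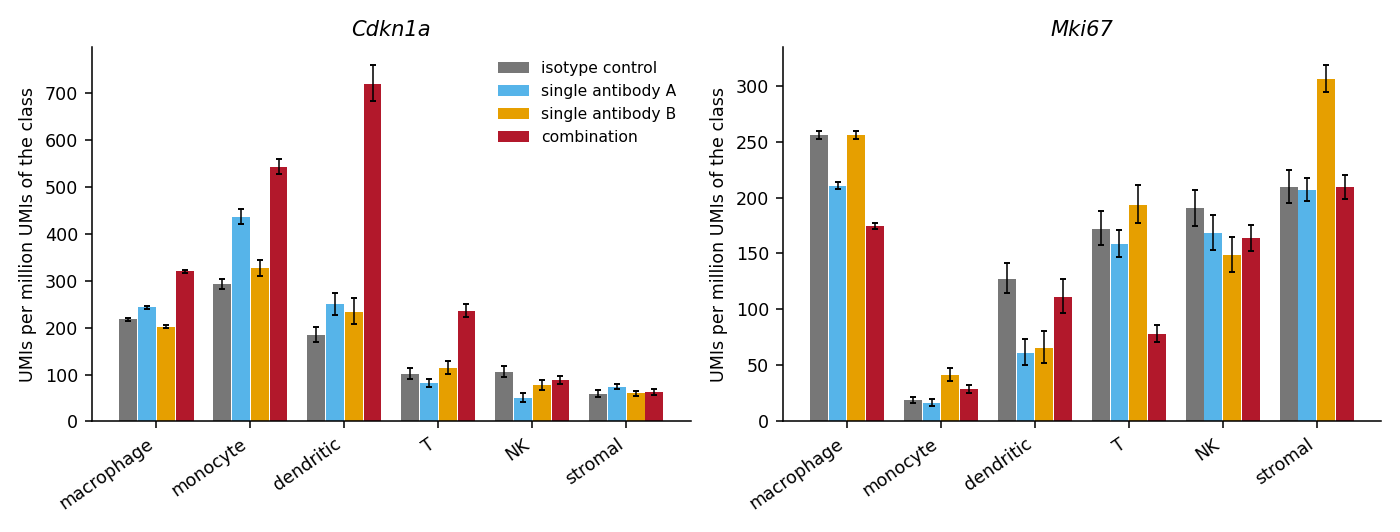
Bars give the level of Cdkn1a (left) and Mki67 (right) in UMIs per 1000000 UMIs of the class, for 6 classes and the 4 libraries, with exact Poisson 95% intervals (counting error only). The combination is the highest library for Cdkn1a in macrophages, monocytes, dendritic cells and T cells, and the lowest for Mki67 in macrophages and T cells.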

How the data were processed

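The authors deposited whole-number UMI counts per cell and gene, 1 matrix per library. Viable CD45+ cells had been enriched on a density gradient, sorted, fixed and profiled with 10x Flex probes, and the file header names Cell Ranger 7.2.0 where the processing notes name 7.0.0 (build mm10). Libraries of 8173, 6390, 6097 and 7630 deposited cells were filtered to at least 500 genes and at most 10% mitochondrial UMIs. The doublet caller (scanpy 1.11.5) called 1, 3, 1 and 2 doublets, and thus had not worked, so each library lost its top 5% of cells by doublet score instead. As in the study's methods, libraries were normalised with SCTransform (Seurat 5.3.0, R 4.3.3) and integrated by anchors on 3000 features, here without 177 cell cycle genes, and clustered on 30 principal components at a resolution of 0.8. Clusters were named from marker lists (at least 3 markers detected in 20% of cells). The rule that set mixed clusters apart was made after the clusters were seen. Rebuilt names may differ from those of the study.

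Members and lists were chosen with earlier results of these data known. Genes with at least 100 UMIs in a class over the 4 libraries were compared with a 1.5-fold ratio. Mcm5, Pcna, Rrm2, Mki67, Top2a, Cdk1 and Stmn1 were named in every class, with the 2 largest and 2 smallest ratios, and likewise in macrophages, T cells and NK cells for other cell cycle genes, with the inhibitors. Further members were named to account for all. Intervals are exact Poisson, exact binomial or conditional binomial intervals of 95%, and cover counting error only. Scripts were tested on simulated data.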

Additional observations from a re-analysis of the deposited data

Results flagged for a closer look

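The classes stood on opposite sides of isotype control in the combination, with intervals of the UMI sums that exclude 1. They cover counting error only and take each UMI as independent. By shares of cells with G2/M genes, the intervals reached 1 in T cells (0.709, 0.398 to 1.26), monocytes (1.15, 0.548 to 2.41) and dendritic cells (1.19, 0.634 to 2.24). Those of macrophages (0.835, 0.769 to 0.906) and stromal cells (1.29, 1.04 to 1.58) did not. The difference between classes was not tested, since each class has 1 library per group. The S phase sum of the combination over isotype control was 1.23 in stromal cells, and 0.711 in T cells, 0.849 in macrophages, 0.869 in dendritic cells and 0.944 in NK cells. The G2/M sum was 1.54 in monocytes and 1.18 in stromal cells, and 0.533 in T cells, 0.784 in macrophages and 0.873 in dendritic cells. The sums of macrophages, T cells and stromal cells kept their side of 1 in every alternative tried. Those of the other classes did not. The G2/M ratio ran from 0.589 to 2.77 in monocytes and from 0.785 to 3.01 in dendritic cells over 12 alternatives each. The value of 2.77 rests on 548 and 220 monocytes of isotype control and the combination, against 1003 and 626. The Ace-led monocyte cluster held 550 and 218. That of 3.01 rests on 117 and 68 dendritic cells, against 248 and 133. The S phase ratio of dendritic cells reached 1.9. The ratio of shares of cells with G2/M genes was less firm than the sums. It reached 1.31 in T cells with the cell cycle genes kept for clustering and 1.02 in macrophages without drawing down. In stromal cells it stayed above 1.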

How the results depend on the processing

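All ratios are of the combination to isotype control. The S phase and G2/M ratios of macrophages and T cells stayed below 1, and those of stromal cells above 1, in every alternative tried (14 for macrophages, 13 for T cells and 12 for stromal cells), while those of monocytes, dendritic cells and NK cells did not keep their side. Over the alternatives the S phase ratio ran from 0.796 to 0.921 in macrophages and from 0.642 to 0.906 in T cells, and the G2/M ratio from 0.666 to 0.849 and from 0.363 to 0.859. Of 150 alternative level ratios, 65 lay within the counting interval of the reported value, 75 moved outside it on the same or an undecided side, and 10 changed side. The causes were not tested. The counts in T cells and monocytes under other definitions of the classes, the added or removed clusters and the mixed clusters were chosen after seeing the data. The counts of genes past the fold in this section are given without the share of all genes. At a resolution of 0.4 no NK cell class was left, so it gave no value. Other alternatives kept only part of a class, so their ratios are of fewer cells. In isotype control and the combination, T cells numbered 359 and 341 at a resolution of 0.4, against 419 and 485 in the main setting. With the cell cycle genes kept for clustering they numbered 353 and 342. Monocytes numbered 548 and 220 at a resolution of 0.4 and 555 and 211 without integration, against 1003 and 626. NK cells numbered 97 and 209 without integration, against 362 and 450. With the cell cycle genes kept for clustering, the S phase ratio was 0.984 in monocytes and 0.885 in NK cells, and the G2/M ratio was 0.795 in macrophages, 1.19 in monocytes, 1.21 in dendritic cells and 0.859 in T cells. The ratio of shares was 1.31 in T cells, and the count of genes past the fold and higher was 3 in monocytes. The count of genes past the fold and lower was 3 in T cells. Without integration, the S phase ratio was 0.84 in macrophages and 1.34 in monocytes, and the G2/M ratio was 0.776 in macrophages, 2.52 in monocytes, 0.367 in T cells and 0.802 in NK cells. The ratio of shares was 3.44 in monocytes. At a resolution of 0.4, the S phase ratio was 0.884 in macrophages, 1.41 in monocytes and 0.745 in T cells, and the G2/M ratio was 0.822 in macrophages, 2.77 in monocytes and 0.465 in T cells. The ratio of shares was 4.06 in monocytes. With no cells left out as doublets, the S phase ratio was 0.802 in macrophages, 0.972 in monocytes, 0.763 in dendritic cells, 0.672 in T cells, 1.03 in NK cells and 1.18 in stromal cells, and the G2/M ratio was 0.81 in macrophages, 0.589 in monocytes, 0.813 in dendritic cells, 0.644 in T cells and 1.1 in NK cells. The count of genes past the fold and higher was 2 in monocytes, and the count of genes past the fold and lower was 16 in monocytes. With classes taken from the marker UMIs of each cell, the S phase ratio was 0.908 in macrophages, 0.877 in monocytes, 1.9 in dendritic cells, 0.801 in T cells, 1.1 in NK cells and 1.29 in stromal cells, and the G2/M ratio was 0.83 in macrophages, 3.01 in dendritic cells, 0.771 in T cells, 1.81 in NK cells and 1.32 in stromal cells. The ratio of shares was 1.72 in NK cells. Without cells holding 1% of UMIs on markers of another class, the S phase ratio was 0.859 in monocytes, 0.957 in dendritic cells, 0.643 in T cells and 1.06 in NK cells, and the G2/M ratio was 0.79 in macrophages, 0.967 in monocytes, 1.15 in dendritic cells, 0.363 in T cells and 1.75 in NK cells. The ratio of shares was 0.302 in monocytes, and the count of genes past the fold and higher was 1 in monocytes. The count of genes past the fold and lower was 1 in monocytes. With the unnamed cluster added, the S phase ratio was 0.839 in macrophages. Without the 2 dividing clusters, the S phase ratio was 0.796 in macrophages, and the G2/M ratio was 0.666 in macrophages. The ratio of shares was 0.738 in macrophages. With the mixed T cell clusters added, the S phase ratio was 0.906 in T cells, and the G2/M ratio was 0.833 in T cells. The count of genes past the fold and lower was 1 in T cells. With the mixed NK cell cluster added, the G2/M ratio was 1.05 in NK cells. With median-of-ratios size factors, the S phase ratio was 0.921 in macrophages, 0.93 in dendritic cells, 0.757 in T cells and 1.25 in stromal cells, and the G2/M ratio was 0.849 in macrophages, 0.934 in dendritic cells, 0.568 in T cells and 1.2 in stromal cells. The count of genes past the fold and higher was 2 in stromal cells. With the mean over cells of the CPM of each cell, the S phase ratio was 0.92 in monocytes, 0.812 in dendritic cells, 0.832 in T cells and 1.45 in stromal cells, and the G2/M ratio was 0.803 in macrophages, 1.16 in monocytes, 1.02 in dendritic cells, 0.616 in T cells, 1.12 in NK cells and 1.3 in stromal cells. With the geometric mean of the ratios of genes, the S phase ratio was 1.2 in monocytes, 0.642 in T cells and 0.984 in NK cells, and the G2/M ratio was 0.79 in macrophages, 0.785 in dendritic cells, 1.02 in NK cells and 1.15 in stromal cells. With the most abundant gene of each list left out, the S phase ratio was 0.826 in macrophages, 1.21 in monocytes and 0.675 in T cells, and the G2/M ratio was 0.801 in macrophages and 1.15 in stromal cells. Without drawing down, the ratio of shares was 1.02 in macrophages. At a minimum of 5 G2/M genes, the ratio of shares was 2.68 in monocytes. At a fold of 2, the count of genes past the fold and higher was 4 in monocytes, 0 in dendritic cells, 0 in NK cells and 0 in stromal cells, and the count of genes past the fold and lower was 1 in dendritic cells and 14 in T cells. At a minimum of 20 UMIs, the count of genes past the fold and higher was 3 in dendritic cells, and the count of genes past the fold and lower was 8 in dendritic cells.

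With the cell cycle genes kept for clustering, the ratios of single genes that changed side were those of Ccnb2 in dendritic cells 1.27, Ube2c in dendritic cells 1.36 and Top2a in T cells 1.02. With no cells left out as doublets, the ratios of single genes that changed side were those of Mki67 in monocytes 0.549, Top2a in monocytes 0.487, Cdk1 in monocytes 0.516, Stmn1 in monocytes 0.837, Tpx2 in monocytes 0.494, Cdc20 in monocytes 0.739 and Mki67 in NK cells 1.02. With classes taken from the marker UMIs of each cell, the ratios of single genes that changed side were those of Stmn1 in monocytes 0.938, Cdc20 in monocytes 0.813, Mcm5 in dendritic cells 1.53, Ube2c in dendritic cells 3.72, Mki67 in NK cells 1.69, Stmn1 in NK cells 1.16 and Tyms in NK cells 1.15. Without cells holding 1% of UMIs on markers of another class, the ratios of single genes that changed side were those of Top2a in monocytes 0.728, Cdk1 in monocytes 0.552, Stmn1 in monocytes 0.793, Tpx2 in monocytes 0.787, Mki67 in NK cells 1.55, Stmn1 in NK cells 1.05 and Tyms in NK cells 1.05. No paired analysis was possible because each group has 1 library, and no replicate could be left out for the same reason. In monocytes and dendritic cells 8 and 9 of the 36 genes had under 100 UMIs and entered no count.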
